A study of Danio rerio with 12 samples.

Results

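The genes described here encode the proteins of the cytosolic ribosome, measured in the white epaxial muscle of zebrafish without or with a working glucocorticoid receptor (Gr) that had or had not been trained by swimming. They were chosen by name alone: names that begin with rpl or rps and a digit, names that begin with rplp, and rpsa, leaving out the kinases and binding proteins that are named after rps6 and rps19. The choice gave 85 genes, 48 for the large and 37 for the small subunit, of 16056 genes that reached 10 counts in 3 or more of the 12 libraries, out of 31962 listed. All 85 did so in every library. They carried 81 distinct names, since 4 names, rpl37 and rps27.2 among them, are each held by 2 genes. Reads of near-identical copies may have been split between them in the counting, so the values of such copies are uncertain. A separate table of gene identifiers held 84 of the 85 and gave 11 of them another name, mostly that of a paralogue. It gave the second rps27.2 (ENSDARG00000100513) as rps27l and the second rpl37 (ENSDARG00000076360) as COA1, which is no ribosomal protein, so the identity of that rpl37 copy is doubtful.

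Ribosomes read mRNA with their small subunit and join amino acids in their large subunit, and each subunit is assembled in the nucleolus and cytoplasm from ribosomal RNA and 1 copy of most of its proteins. In vertebrates the mRNAs of nearly all ribosomal proteins begin with a run of pyrimidines, the 5′ TOP motif, through which mTOR signalling sets how strongly they are translated. In skeletal muscle the supply of ribosomes is one of the determinants of the capacity for protein synthesis, and glucocorticoids acting through Gr are known to restrain muscle protein synthesis.

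The libraries fell into 4 groups of 3, each library from 1 fish: exercised Gr mutants, non-exercised Gr mutants, exercised wild-type fish and non-exercised wild-type fish. Gr mutants came from the gr s357 line, in which a point mutation disables the part of the receptor that binds DNA. All fish are listed as 3 months old at the start, an age that the authors state for the wild-type fish only. Exercised fish swam at 0.4 m/s over 4 weeks, daily for 6 h and on 5 days of each week, and non-exercised fish were kept at 0.1 m/s. Exercised and non-exercised fish were housed in 1 swim tunnel each, so an effect of the tunnel and one of exercise cannot be told apart. The point mutation leaves the transcript in place, so the level of nr3c1, the gene for Gr, does not check the labels: it was 37.1 to 66.9 CPM (counts scaled to a library size common to all samples) in Gr mutants and 27.4 to 59.9 CPM in wild-type fish.

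Each library held 7688323 to 13894240 counts on genes, of which 31.1 to 46.1% lay on its 10 most counted genes. CPM values were scaled by the trimmed mean of M values (TMM), a method that sets the bulk of genes equal between libraries and whose factors ran from 0.779 to 1.40. All 24 listed markers of white muscle had counts in these libraries and summed to 196140 to 454739 CPM per library. By group the sums were 323442 to 454739 CPM in exercised and 196140 to 411169 CPM in non-exercised Gr mutants. In wild-type fish they were 204429 to 330037 CPM with exercise and 211867 to 355292 CPM without. Replicate 3 of the non-exercised Gr mutants stood apart from replicates 1 and 2 on the first 2 principal components, at -5.46 and 22.9 against -56.0 and -57.2 on the first and -49.6 and -42.3 on the second. Its summed connective tissue markers reached 9621 CPM against 1848 and 3903 CPM in replicates 1 and 2, and its summed leukocyte markers 64.9 CPM against 803 and 482 CPM. Summed connective tissue markers were 7695 to 10374 CPM in exercised and 1848 to 9621 CPM in non-exercised Gr mutants, and 4021 to 5168 CPM in exercised and 1450 to 1962 CPM in non-exercised wild-type fish, with all 14 markers detected. Replicate 3 of the non-exercised Gr mutants thus lay within the exercised Gr mutants in connective tissue and white muscle markers (411169 CPM). Its leukocyte sum lay below theirs (76.7 to 136 CPM). On the first 2 principal components the exercised Gr mutants, at -38.1 to -27.1 and 24.7 to 64.5, were nearer to it than replicates 1 and 2. Oocyte markers were at 4.52 CPM or less except in replicate 3 of the exercised Gr mutants (418 CPM) and replicates 2 and 3 of the non-exercised wild-type fish (40.5 and 10.9 CPM), and erythrocyte markers reached 3135 CPM in replicate 2 of the exercised wild-type fish against 185 to 597 CPM elsewhere. Slow muscle markers ranged from 788 to 5814 CPM, endothelial markers from 104 to 171 CPM and markers of proliferating cells from 25.7 to 105 CPM. The part that these cell types play in the values below was not tested.

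The 85 genes together took a smaller share of all counts in exercised fish of both genotypes. The share was 2.72, 3.32 and 3.03% in exercised Gr mutants, against 5.33, 3.45 and 4.32% in non-exercised Gr mutants. In wild-type fish it was 2.86, 3.1955 and 3.10% in the exercised group, against 3.52, 4.42 and 4.64% in the non-exercised group. Within each genotype no exercised library reached the lowest non-exercised one, but the gap between the nearest libraries was small beside the spread of the non-exercised groups (SD 0.942 percentage points in Gr mutants and 0.592 in wild-type fish). In bulk muscle, fewer cells of a type and less RNA per cell cannot be told apart.

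**Figure D1:**
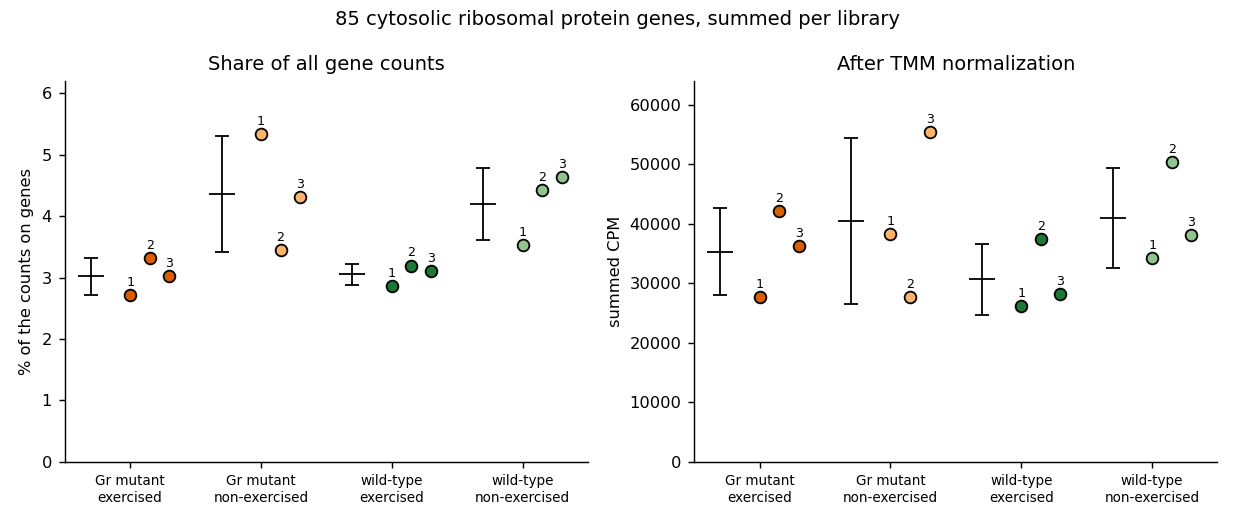
Summed counts of the 85 ribosomal protein genes in each of the 12 libraries, as a percentage of all counts on genes (left) and as TMM-normalized CPM (right). Points are libraries numbered by replicate, and the bar beside them is the mean ± SD of the 3 libraries of the group. The exercised groups lie at 2.72 to 3.32% of counts, below every non-exercised library, while on the CPM scale the groups overlap.

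This separation was not seen after TMM normalization. Summed CPM were 27642, 42092 and 36189 in exercised Gr mutants, against 38285, 27758 and 55482 in non-exercised Gr mutants. They were 26223, 37451 and 28242 in exercised wild-type fish, against 34267, 50414 and 38121 in non-exercised wild-type fish. The groups overlapped in both genotypes, with a log2 ratio of group means of -0.20 in Gr mutants and -0.42 in wild-type fish. By share of counts the same ratios were -0.53 and -0.46. The 3 libraries of highest summed CPM were replicate 3 of the non-exercised Gr mutants, replicate 2 of the non-exercised wild-type fish and replicate 2 of the exercised Gr mutants. Their TMM factors were 0.779, 0.878 and 0.789, against 0.839 to 1.40 in the other libraries.

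After TMM normalization, ribosomal protein genes moved as a block from library to library, also within groups. By share of counts, the exercised and non-exercised groups of each genotype were apart, as given above. A single value per library, the mean log2 CPM of the 85 genes, held 79.2% of their variance over the 12 libraries and 84.7% of their variance within groups. Of the variance of that library mean, 79.98% lay between replicates of the same group. With 4 groups of 3 libraries most of it would lie there even if the groups did not differ. This share therefore does not show how far the groups differ. The mean log2 CPM was 8.21 ± 0.29 in exercised and 8.38 ± 0.50 in non-exercised Gr mutants, and 8.06 ± 0.26 in exercised and 8.42 ± 0.28 in non-exercised wild-type fish (SD, n = 3 each). In replicate 3 of the non-exercised Gr mutants 84 of the 85 genes lay above their own mean over the 12 libraries, in replicate 2 of the same group 3 did, and in replicate 1 of the exercised wild-type fish 2 did. The median SD of a gene was 0.361 in log2 CPM and 0.121 around the library mean, and 65 genes stayed within an SD of 0.15 of it. rpl8, a large subunit protein close to the peptidyl transferase centre, followed the library mean most closely, with an SD of 0.0275. Its level was 532, 807 and 685 CPM in exercised Gr mutants, against 766, 535 and 1033 CPM in non-exercised ones, and 492, 736 and 562 CPM in exercised wild-type fish, against 654, 936 and 736 CPM in non-exercised ones. After TMM normalization it therefore shows the pattern of the block. Replicate 2 was high in the exercised groups and in non-exercised wild-type fish, and replicate 3 in non-exercised Gr mutants. By share of counts, the 85 genes together were instead highest in replicate 1 of non-exercised Gr mutants (5.33%, against 4.32% in replicate 3). In non-exercised wild-type fish they were highest in replicate 3 (4.64%, against 4.42% in replicate 2). In the non-exercised groups the pattern thus depends on the scaling.

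**Figure D2:**
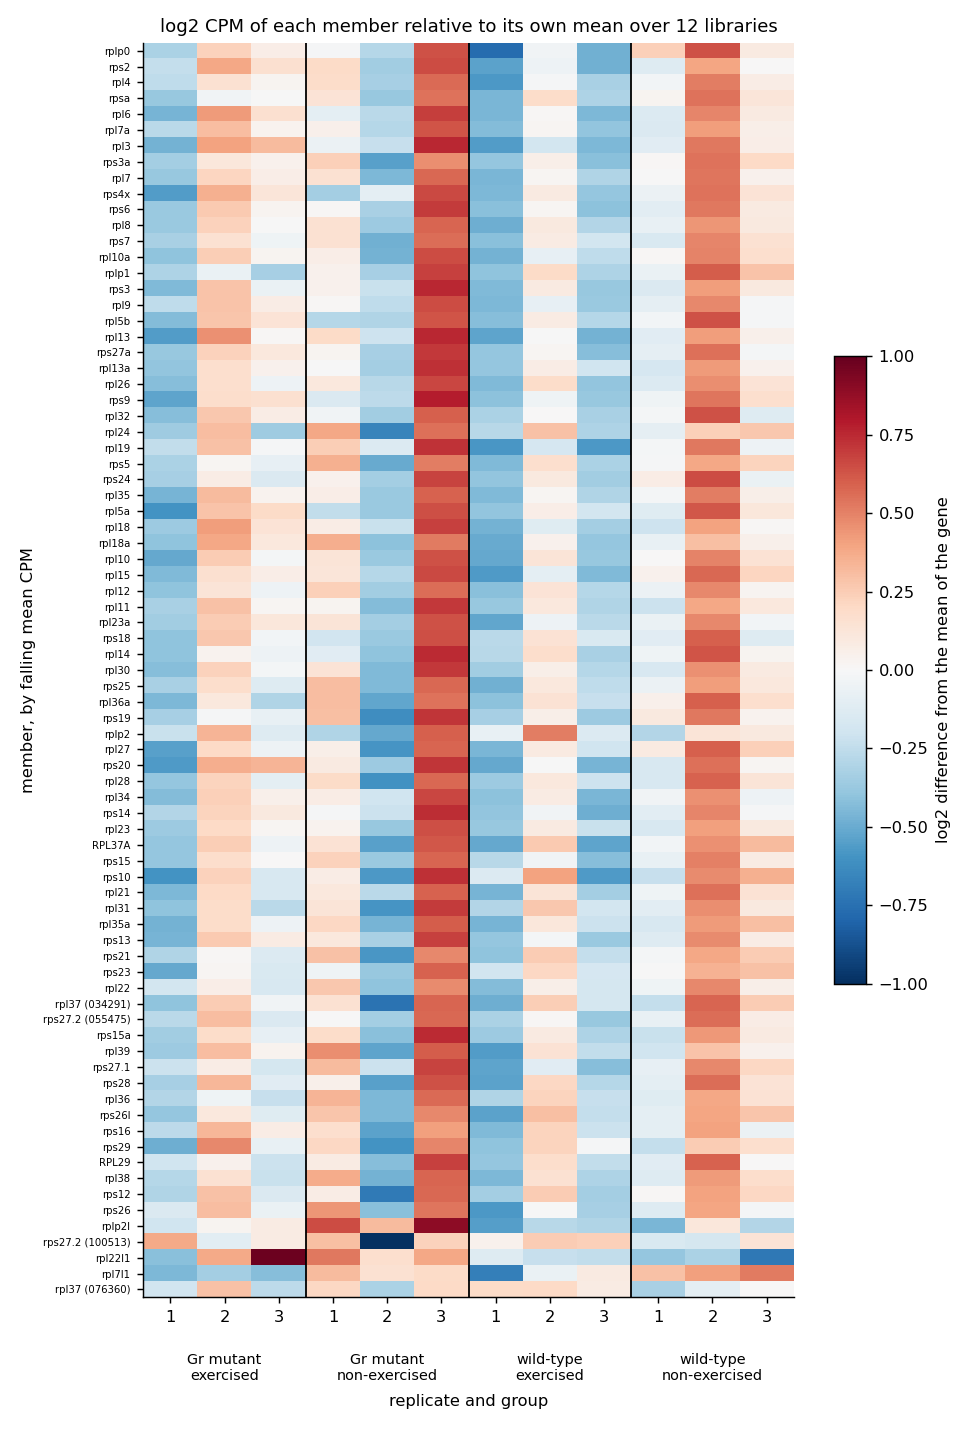
Each row is 1 of 79 of the 85 ribosomal protein genes, ordered by falling mean CPM, and each column 1 of the 12 libraries. Colour gives the difference in log2 CPM, after TMM normalization, of a gene from its own mean over the libraries. Differences beyond 1 are drawn as 1. Most rows share 1 pattern of columns, in which 84 of 85 genes are above their mean in replicate 3 of the non-exercised Gr mutants, and the rows that depart from it are mostly the low copies near the bottom.

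The reads were spread over the 85 genes, with no gene above 5.16% of them. CPM values are not divided by transcript length, so they rank reads and not molecules. rplp0, which anchors the acidic stalk that recruits elongation factors, took 5.16% of all counts on the 85 genes, followed by rps2 of the mRNA entry channel with 4.02%, rpl4 of the exit tunnel with 3.05%, and rpsa, also known as the laminin receptor, with 2.94%. rpl6, rpl7a, rpl3, rps3a, rpl7 and rps4x held 1.97 to 2.69% each. Among the lowest were rps27.2 (ENSDARG00000100513), rpl22l1, rpl7l1 and rpl37 (ENSDARG00000076360), at a mean of 24.3, 15.5, 9.06 and 7.89 CPM. The large subunit held 59.2 to 60.4% of these counts in every library, while the sum itself ran from 26223 to 55482 CPM.

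Exercise was compared first within Gr mutants. None of the 85 genes passed edgeR's quasi-likelihood test at an adjusted p of 0.05, as none of the 14584 genes tested did (0.0%), and DESeq2 called none of the 85 either. The fitted log2 fold change was negative for 80 of 85 genes (94.1%) and for 51.7% of all genes, with a median of -0.19 against -0.02 over all genes. Since the genes share their libraries and move together, these 80 are not 80 separate observations. Without replicate 3 of the non-exercised Gr mutants the median was 0.06 and 27 genes were negative. At an unadjusted p of 0.05, 2 genes were lower and none higher (2.35%), while 5.66% of all genes were lower and 10.5% changed in either direction. These 2 were rplp2l and rpl7l1, which were also the 2 whose groups did not overlap (7.07% of all genes were lower without overlap). The median 95% interval of a gene reached 0.81 log2 units to either side of its estimate, so a change of this median size was not detectable for a single gene at this depth and number of fish.

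In wild-type fish exercise went with lower levels of the same kind, again without a call. None of the 85 genes passed, beside 54 of 14597 genes tested (0.37%), and DESeq2 called none. The fitted log2 fold change was again negative for 80 of 85 genes, against 47.7% of all genes, and its median was -0.38 (a ratio of 0.767), against 0.03 over all genes. Leaving out 1 library at a time moved this median between -0.53 and -0.22, the weakest without replicate 2 of the non-exercised fish. Both subunits had the same median of -0.38. At an unadjusted p of 0.05, 6 genes were lower and none higher (7.06%), near the 6.58% of all genes that were lower and under the 13.9% that changed in either direction. Without overlap of the groups, 8 were lower (9.41%, against 10.1% of all genes), among them rplp0, rpl15, rpl19, rpl7l1, rpl3, rps27.1 and rpl10a. A further 2 were higher without overlap (2.35%, against 10.4%), rpl22l1 and the doubtful rpl37 copy. The shares of single genes past these lines were thus near or below those of all genes in this fit. The number of the 85 with an unadjusted p under 0.05 depended on the setting. It was 30 with library totals alone, 24 with the replicate number as a block, 3 with a joint fit of all 4 groups and 0 to 16 without 1 library. Shares of all genes were not computed for these settings.

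**Figure D3:**
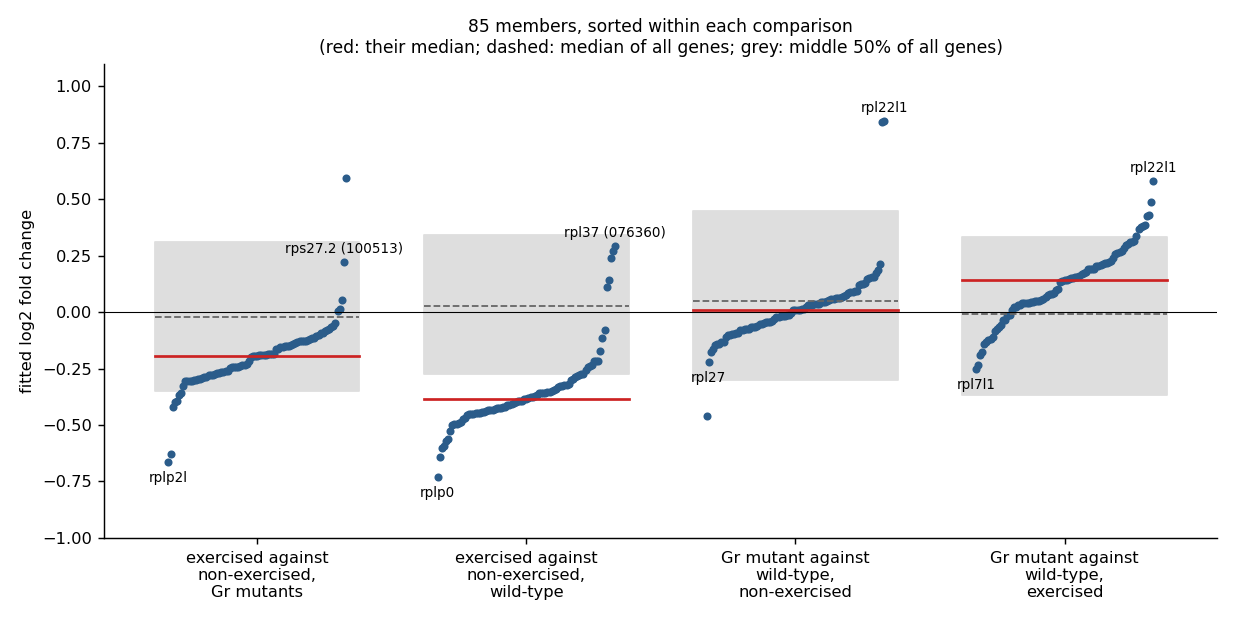
Fitted log2 fold changes of the 85 ribosomal protein genes, sorted within each of the 4 comparisons, with 1 low and 1 high gene named. Red lines are the medians of the 85 genes (-0.19, -0.38, 0.01 and 0.14 from left to right), dashed lines the medians of all genes tested, and grey boxes the middle 50% of all genes. The 85 genes sit below the median of all genes in both comparisons of exercise, and in wild-type fish most of them lie below the grey box (middle 50% of the 85 genes from -0.44 to -0.30, against -0.27 to 0.34 for all genes).

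Gr mutants and wild-type fish were then compared at each exercise level. Without exercise the 85 genes were spread evenly about 0, with 44 positive and 41 negative fold changes (46.4% of all genes were negative) and a median of 0.01, against 0.05 over all genes. None passed, beside 35 of 15011 genes (0.233%), and DESeq2 called none. At an unadjusted p of 0.05, 2 were higher in Gr mutants and none lower (2.35%, against 9.91% of all genes higher and 17.2% in either direction), rplp2l and rpl22l1, and the same 2 were the genes whose groups did not overlap (10.7% of all genes were higher without overlap). The median moved with the libraries: it was -0.30 with 82 genes negative without replicate 3 of the Gr mutants and 0.24 with 2 genes negative without replicate 2 of the Gr mutants. In exercised fish 68 of 85 genes were positive and 17 negative (50.6% of all genes were negative), with a median of 0.14 against -0.01 over all genes. None passed, beside 426 of 14106 genes (3.02%), DESeq2 called none, and none reached an unadjusted p of 0.05, against 19.5% of all genes. The only gene whose groups did not overlap there was rplp2l, higher in Gr mutants (1.18%, against 12.6% of all genes). Scaled to library totals alone, the median was -0.05 with 56 genes negative.

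The difference between the exercise effects of the genotypes was tested as an interaction over the 12 libraries, the log2 fold change in Gr mutants minus that in wild-type fish. None of the 85 genes passed, as none of the 16056 genes did (0.0%), DESeq2 called none of the 85, and none reached an unadjusted p of 0.05, against 8.39% of all genes. The median interaction was 0.17, against -0.03 over all genes, with 72 genes positive and 13 negative (52.2% of all genes were negative). Leaving out 1 library at a time moved it between -0.05 and 0.43, the highest without replicate 3 of the non-exercised Gr mutants. The exercise effects on these genes were thus not shown to differ between Gr mutants and wild-type fish, and the median 95% interval of a gene reached 0.94 log2 units to either side.

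The stalk of the large subunit is built of rplp0, which binds ribosomal RNA, and dimers of rplp1 and rplp2, which contact the GTPases of translation. rplp0 had the lowest fold change of the 85 genes in exercised wild-type fish, at -0.73 ± 0.27 (log2, SE, adjusted p = 0.288). Its level was 1078, 1797 and 1323 CPM in exercised and 2169, 2860 and 1959 CPM in non-exercised wild-type fish, so that every exercised library lay below every non-exercised one. In Gr mutants it was 1478, 2165 and 1928 CPM with exercise and 1829.6, 1508 and 2868 CPM without, and the groups overlapped. rplp1 gave fold changes of -0.42 in Gr mutants, where the median of the 85 genes was -0.19, and -0.45 in wild-type fish, where it was -0.38. rplp2 gave 311, 459 and 332 CPM in exercised and 294, 254 and 548 CPM in non-exercised Gr mutants, and 345, 517 and 330 CPM in exercised and 296, 397 and 387 CPM in non-exercised wild-type fish. Its fold changes of 0.01 and 0.14 had 95% intervals of -0.82 to 0.85 and -0.42 to 0.71.

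rplp2l, listed as a paralogue of rplp2, separated the groups in 3 comparisons. It gave 53.7, 63.1 and 65.3 CPM in exercised Gr mutants, against 97.3, 77.0 and 115 CPM in non-exercised Gr mutants. In wild-type fish it was 42.3, 50.9 and 50.3 CPM with exercise, against 45.1, 66.7 and 50.5 CPM without. The non-exercised Gr mutants were thus the high group, above all 9 other libraries. Exercised against non-exercised Gr mutants gave a log2 fold change of -0.66 ± 0.26 (SE, adjusted p = 0.456), and non-exercised Gr mutants against wild-type fish gave 0.84 ± 0.27 (SE, adjusted p = 0.191). As a share of the reads on rplp2 and rplp2l, the paralogue held 14.7, 12.1 and 16.4% in exercised Gr mutants, against 24.8, 23.2 and 17.3% in the non-exercised group. It held 10.9, 8.96 and 13.2% in exercised wild-type fish, against 13.2, 14.4 and 11.5% in the non-exercised group. This share, which does not depend on the scaling of the libraries, separated the same groups of Gr mutants and separated the non-exercised Gr mutants from non-exercised wild-type fish. Between exercised Gr mutants and exercised wild-type fish, which were apart by CPM, the share overlapped. In the 3 non-exercised Gr mutants, summed leukocyte markers were 803, 482 and 64.9 CPM, and the CPM of rplp2l was highest, but its share of the pair lowest, in the library where those markers were lowest. Their part in the result was not tested.

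rpl22l1 is the paralogue of rpl22, an RNA-binding protein of the large subunit whose loss mice tolerate. It gave 11.0, 19.0 and 28.9 CPM in exercised Gr mutants and 21.1, 16.5 and 19.2 CPM in non-exercised Gr mutants. In wild-type fish it gave 13.4, 12.5 and 12.3 CPM with exercise and 11.2, 11.7 and 8.92 CPM without. All 3 non-exercised Gr mutants were above all 6 wild-type fish, while replicate 1 of the exercised Gr mutants was not. Summed markers of proliferating cells were 44.8, 56.3 and 105 CPM in exercised Gr mutants, 100.2, 103 and 43.2 CPM in non-exercised Gr mutants and 25.7 to 48.9 CPM in wild-type fish. Their part in the result was not tested. The fold change of Gr mutants over wild-type fish was 0.85 ± 0.24 without exercise (log2, SE, adjusted p = 0.160, the lowest of the 85 genes in that comparison) and 0.58 ± 0.33 with exercise (adjusted p = 0.379). rpl22 itself gave -0.02 and 0.05 in the same comparisons. Within the pair, rpl22l1 held 6.43, 7.88 and 5.15% of the reads in non-exercised Gr mutants, against 4.32, 3.19 and 3.25% in non-exercised wild-type fish. It also held more in exercised than in non-exercised wild-type fish, at 6.64, 4.48 and 5.19%.

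**Figure D4:**
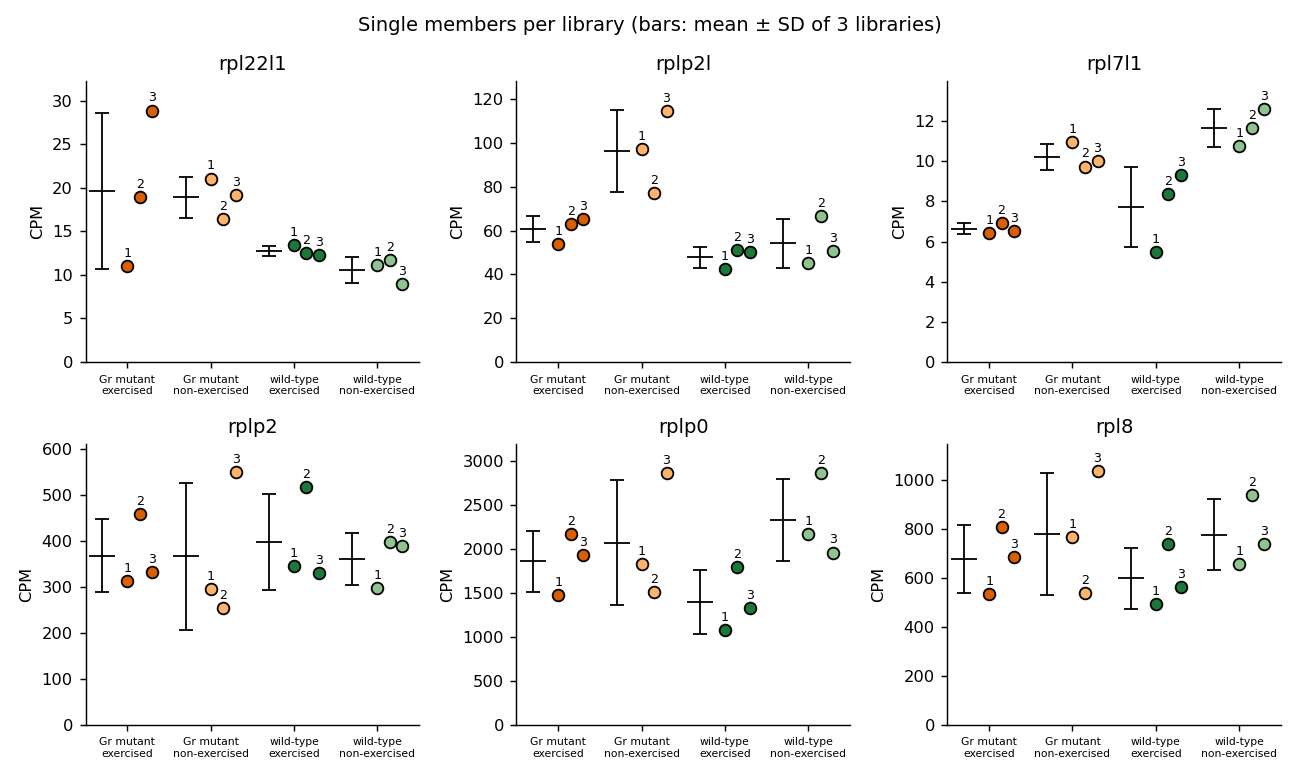
CPM of 6 ribosomal protein genes in each of the 12 libraries. Points are libraries numbered by replicate, and the bar beside them is the mean ± SD of the 3 libraries of the group. rpl22l1 and rpl7l1 depart in most groups from the common pattern of replicates shown by rpl8. rplp2l departs from that pattern only in exercised Gr mutants, and its level is highest in non-exercised Gr mutants. rplp2 and rplp0 are highest in the same replicate as rpl8 in each group, and rplp0 is lower in exercised wild-type fish (1078 to 1797 CPM) than in non-exercised ones (1959 to 2860 CPM).

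rpl7l1 is the paralogue of rpl7 and in human cells has been linked to ribosome assembly. It was lower with exercise in both genotypes without overlap of the groups. Gr mutants gave 6.44, 6.94 and 6.53 CPM with exercise, against 11.0, 9.74 and 9.99 CPM without, and wild-type fish gave 5.46, 8.37 and 9.32 CPM with exercise, against 10.7, 11.6 and 12.6 CPM without. The fold changes were -0.63 ± 0.23 in Gr mutants (adjusted p = 0.444) and -0.59 ± 0.23 in wild-type fish (adjusted p = 0.313), so neither passed. rpl7l1 was the only one of the 85 genes that was lower without overlap in both genotypes. Of all genes, 7.07% were lower without overlap in Gr mutants and 10.1% in wild-type fish. The share of all genes that were so in both was not computed, so this 1 gene is not set apart by it.

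The shares of other paralogue pairs were read in the same way, and some of them separated groups. rpl5a and rpl5b, which with rpl11 and 5S ribosomal RNA form the particle that binds Mdm2 in mammals, split their reads with 54.3 to 59.2% on rpl5b in every library, and overlapped in every comparison. rps26l held 61.0 to 64.1% of the reads on rps26 and rps26l in exercised Gr mutants, against 65.6 to 69.5% in exercised wild-type fish. It held 62.3 to 64.5% in non-exercised Gr mutants, against 65.0 to 69.5% in non-exercised wild-type fish. The share of rps26l was therefore lower in Gr mutants at both exercise levels without overlap, a difference that was not tested. By CPM, 11.3% of all genes were lower in Gr mutants without overlap in non-exercised fish, and 12.8% in exercised fish. The rpl7 pair overlapped in all 4 comparisons. rps27.2 (ENSDARG00000055475) held 52.8 to 57.7% of the reads on it and rps27.1 in exercised Gr mutants and 48.2 to 52.1% in non-exercised ones, and overlapped in wild-type fish. The second rps27.2 and the second rpl37 each took a higher share of their pair in exercised than in non-exercised wild-type fish without overlap, at 10.1 to 12.7% against 5.43 to 9.04%, and 2.95 to 4.78% against 1.92 to 2.86%. By CPM, 9.13% of all genes were higher with exercise without overlap in Gr mutants, and 10.4% in wild-type fish. No such rate was computed for shares of pairs, including the rplp2 and rpl22 pairs above, so these separations are not set apart by it.

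The following genes, several known for roles beyond the core of translation, had negative fold changes with exercise in both genotypes, and none passed. In each genotype 80 of the 85 genes were negative, so the sign is not particular to them. rps6, the substrate of S6 kinase, gave 533, 828 and 701 CPM in exercised and 693, 552 and 1121 CPM in non-exercised Gr mutants, and 516, 697 and 519.6 CPM in exercised and 639.5, 995 and 733 CPM in non-exercised wild-type fish. Its fold changes with exercise were -0.19 ± 0.36 and -0.45 ± 0.25. These values overlap in Gr mutants and, by replicate 2 of the exercised fish, in wild-type fish. rps19 and rpl11, whose human genes are mutated in Diamond-Blackfan anaemia, gave -0.36 and -0.15 in Gr mutants and -0.43 and -0.28 in wild-type fish. rps27a, made as a fusion with ubiquitin, gave -0.18 and -0.42, and rpsa gave -0.27 and -0.41. rpl10, which is needed for the last step of large subunit maturation, gave -0.24 and -0.45, rps4x gave -0.11 and -0.45, rpl5a gave -0.06 and -0.39, and rpl5b gave -0.05 and -0.42. The adjusted p of these genes ran from 0.448 upwards in wild-type fish and from 0.756 upwards in Gr mutants. rpl3, which lies near the peptidyl transferase centre, gave 631, 1160.4 and 1089.8 CPM in exercised and 842, 749 and 1478 CPM in non-exercised Gr mutants, and 595, 774 and 642 CPM in exercised and 812, 1263 and 916 CPM in non-exercised wild-type fish. Only the wild-type groups were apart, at -0.57 ± 0.24 (adjusted p = 0.348), and in exercised fish rpl3 had the second highest fold change of Gr mutants over wild-type fish, 0.49 ± 0.28 (adjusted p = 0.385).

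Scaling each library to the summed counts of the 85 genes, a setting added after the data had been seen, takes the common movement out and leaves each gene relative to the others. None of the 85 passed in any of the 5 comparisons (0.267, 0.665, 0.486, 2.18 and 0.0% of all genes did, in the order above). With exercise in Gr mutants 80 of 85 genes then lay within 0.2 log2 units of 0, and in wild-type fish 75 did. At an unadjusted p of 0.05 there were 4 genes with exercise in wild-type fish (18.8% of all genes reached it), rplp2, rpl22l1, rps27.2 (ENSDARG00000100513) and rpl37 (ENSDARG00000076360), all higher relative to the others. For Gr mutants over wild-type fish without exercise only rplp2l reached it (10.9% of all genes). None did with exercise in Gr mutants (6.4% of all genes), for Gr mutants over wild-type fish in exercised fish (14.0%) or in the interaction (6.01%). By construction this scaling centres the 85 genes near 0 and shifts the other genes against them. With exercise in wild-type fish the median of all genes was then 0.44, against 0.03 for the 85 genes. The shares of all genes given in brackets are therefore no like baseline for the 85.

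The same comparisons were read in genes that make, use or regulate ribosomes, from lists made by hand. Ribosome biogenesis factors, the nucleolar proteins that process and assemble ribosomal RNA, had lower values with exercise than the ribosomal proteins themselves. In Gr mutants 70 of 72 were negative with a median log2 fold change of -0.47, and in wild-type fish 69 of 72 were negative with a median of -0.75. None passed by edgeR in either genotype. At an unadjusted p of 0.05 there were 15 in Gr mutants (20.8%, against 10.5% of all genes) and 45 in wild-type fish (62.5%, against 13.9% of all genes), and DESeq2 called 0 and 10. The 72 genes share their libraries, so they are not 72 separate observations. Initiation factors were negative in 40 of 45 cases in each genotype, with medians of -0.29 and -0.36, elongation factors in 11 of 13 and 11 of 12, with medians of -0.24 and -0.49, and other genes with a 5′ TOP motif in 10 of 13 and 13 of 13, with medians of -0.25 and -0.48, in each case Gr mutants before wild-type fish. Ribosome quality control genes were negative in 10 of 14 and 13 of 14, with a median of -0.44 in both. None of these passed. At an unadjusted p of 0.05 the shares of these 4 lists, in the same order, were 11.1, 23.1, 23.1 and 28.6% in Gr mutants (10.5% of all genes). In wild-type fish they were 31.1, 33.3, 46.2 and 50% (13.9% of all genes), so a share above that of all genes was not particular to biogenesis factors.

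**Figure D5:**
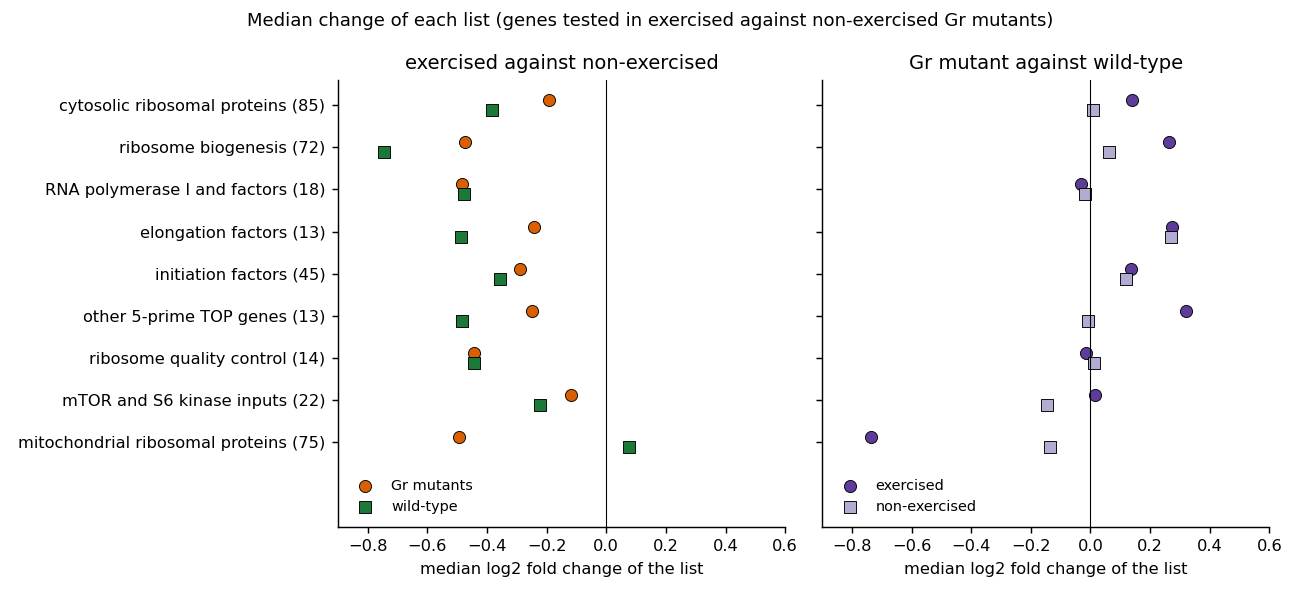
Median fitted log2 fold change of the 85 cytosolic ribosomal protein genes and of 8 lists of related genes, with the number tested in brackets. The left panel compares exercised with non-exercised fish in Gr mutants (circles) and wild-type fish (squares), and the right panel Gr mutants with wild-type fish in exercised (circles) and non-exercised (squares) fish. Ribosome biogenesis has the lowest exercise median in wild-type fish (-0.75), and mitochondrial ribosomal proteins the lowest median of exercised Gr mutants over exercised wild-type fish (-0.73).

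One gene of RNA polymerase I, which transcribes ribosomal RNA, passed. polr1a, its largest subunit, fell with exercise in wild-type fish, to 8.87, 10.2 and 11.5 CPM in exercised fish, against 22.6, 25.02 and 27.0 CPM in non-exercised fish (log2 fold change -1.28 ± 0.18, SE, adjusted p = 0.037). In Gr mutants it gave 12.5, 14.4 and 15.97 CPM with exercise, against 13.4, 16.2 and 15.6 CPM without, and the interaction was 1.202 ± 0.27 (adjusted p = 0.490). The call was lost in 9 of 14 alternative settings, including each setting that left out 1 library, with fold changes of -1.38 to -1.19 there. The other 16 genes of that list tested in wild-type fish did not pass, and none of 18 passed in Gr mutants, with a median of -0.48 in both genotypes. With polr1a included, 6 of 17 had an unadjusted p under 0.05 in wild-type fish (35.3%, against 13.9% of all genes). In Gr mutants 3 of 18 did (16.7%, against 10.5% of all genes). Of the mTOR and S6 kinase genes, none of 22 passed with exercise in either genotype, with medians of -0.12 in Gr mutants and -0.22 in wild-type fish. In exercised fish rps6kb1a, a gene for the kinase that phosphorylates rps6, was lower in Gr mutants, at 2.93 ± 0.62 CPM, against 11.3 ± 1.8 CPM in wild-type fish (SD, n = 3 each). The highest Gr mutant, at 3.63 CPM, was below the lowest wild-type fish, at 9.40 CPM (log2 fold change -1.96 ± 0.25, SE, adjusted p = 0.012). Without replicate 2 or replicate 3 of the exercised Gr mutants it no longer passed, at -1.87 and -1.84. In non-exercised fish rps6kb1a was also lower in Gr mutants, at 6.45 ± 1.60 CPM, against 15.01 ± 3.53 CPM in wild-type fish. The highest Gr mutant there, at 7.59 CPM, was below the lowest wild-type fish, at 12.05 CPM. The gene did not pass in that comparison (log2 fold change -1.22 ± 0.29, SE, adjusted p = 0.136). The interaction was -0.70 ± 0.38 (SE, adjusted p = 0.649), so this genotype difference was not shown to depend on exercise.

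Mitochondrial ribosomal proteins, which build the separate ribosome of the mitochondrion, had another pattern. With exercise 73 of 75 were negative in Gr mutants with a median of -0.49, but 28 of 75 in wild-type fish with a median of 0.08. None passed in either. In exercised fish 73 of 75 were negative in Gr mutants over wild-type fish, with a median of -0.73 against 0.14 for the 85 cytosolic genes, and 8 were called, all lower (10.7%, against 2.37% of all genes): mrps17, mrpl36, mrpl54, mrpl43, mrps23, mrps34, mrps22 and mrps18b. mrps23 gave 2.64, 1.82 and 2.22 CPM in exercised Gr mutants, against 5.75, 5.65 and 5.56 CPM in exercised wild-type fish (log2 fold change -1.36 ± 0.25, SE, adjusted p = 0.031). mrpl43 gave 4.62, 3.47 and 2.78 CPM, against 10.1, 8.47 and 9.85 CPM (log2 fold change -1.41 ± 0.25, SE, adjusted p = 0.029). In these 2 genes no exercised Gr mutant came near an exercised wild-type fish. At 1.82 to 2.64 CPM, however, the Gr mutant values of mrps23 rest on few counts. Of 14 alternative settings, the call of mrps23 was lost in 7 and that of mrpl43 in 6. mrps17 gave only 0.91, 0.66 and 1.11 CPM in exercised Gr mutants, against 2.06, 5.65 and 4.59 CPM in exercised wild-type fish. Its Gr mutant values rest on few counts, and it reached the filter on low counts through the wild-type fish, so its call is uncertain. The count of 8 was 0 to 5 when 1 library was left out. It was 0 without each of replicates 2 and 3 of the Gr mutants and replicate 2 of the wild-type fish. With all libraries, 48 of 75 had an unadjusted p under 0.05 (64%, against 19.5% of all genes). Without 1 library 36 to 49 did, and the share of all genes was not computed there. The 75 genes share their libraries, so they are not 75 separate observations. Without exercise 50 of 75 were negative with a median of -0.14, and the interaction had a median of -0.51 with 70 of 75 negative and none called.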

How the data were processed

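RNA from white muscle was sequenced from 12 zebrafish, 3 per group. The authors aligned single-end reads to GRCz10 with TopHat 2.0.5, removed secondary alignments with SAMtools 0.1.18 and counted reads per gene with HTSeq 0.5.3p9; its strand setting is not given in the sources used here. The deposited values used are these raw counts, in 4 tables of 6 libraries each, in which 0 sample columns were left unused. The tables also hold the fold changes and p-values of the authors' own DESeq comparisons, which were not used.

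Every comparison used only its own 6 libraries in edgeR 4.0.16 (R 4.3.3, limma 3.58.1): TMM normalization, genes reaching 10 counts in 3 or more of those libraries, the two-sided quasi-likelihood test and Benjamini-Hochberg adjustment over all genes tested, with a threshold of 0.05. The interaction used all 12 libraries. CPM use TMM factors over all 12. The p-values measure the spread between single fish. DESeq2 1.42.0 was an alternative. Scripts were tested on simulated data. Tables and figures were made with Python 3.11.15, pandas 2.3.3, numpy 2.4.6 and matplotlib 3.10.9.

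Genes were named if among the 10 highest or 5 lowest by CPM, if among the 4 largest rises or falls of a comparison at a mean of at least 100 counts, or by role (stalk proteins, the rpl5 and rpl11 particle, paralogues, rps6, rpsa, rps19, rps27a, rpl3, rpl10 and rps4x); genes of related lists if they passed the test. rpl8 and the paralogue pairs with shared names were picked with their values in view. The members and all lists were chosen with earlier results of these data known. No genome or sequence table was used, so no promoter was read and levels are not per length. Some members count in the totals but are not reported singly here.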

Additional observations from a re-analysis of the deposited data

How the results depend on the processing

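No call on the 85 genes changed under any of the alternatives run: none passed with DESeq2's Wald test, DESeq2's size factors, TMM without the ribosomal protein genes, library totals alone, no filter on low counts, a joint fit of all 4 groups, the stricter filter of the interaction, scaling to their own sum or without any 1 library. Over all genes the counts of calls moved by more than 1.5 times. With exercise in Gr mutants they were 0 by edgeR, 105 by DESeq2 and 58 without replicate 3 of the non-exercised Gr mutants. In wild-type fish they were 54, 395 by DESeq2 and 7 to 32 without 1 library. For Gr mutants against wild-type fish they were 35, 726 by DESeq2 and 0 to 544 without exercise, and 426, 944 by DESeq2 and 6 to 508 with exercise. The interaction gave 0 and, by DESeq2, 32. The other settings gave 0 to 39, 4 to 142, 0 to 184, 223 to 598 and 0 calls in the same order, and the ribosome biogenesis factors called with exercise in wild-type fish were 0 to 10 over all settings. The median of the 85 genes with exercise in wild-type fish became 0.034 when scaled to their own sum, by construction. Library totals alone shifted the median of all genes by over 0.1, to -0.39 with exercise in Gr mutants, where the 85 genes had -0.54, to 0.15 and -0.18 for Gr mutants against wild-type fish without and with exercise, and to -0.36 for the interaction, where the 85 genes had -0.14.

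Without 1 library at a time, the median ran from -0.41 to 0.06 with exercise in Gr mutants, from -0.53 to -0.22 in wild-type fish, from -0.30 to 0.24 for Gr mutants against wild-type fish without exercise, from -0.0004 to 0.31 with exercise, and from -0.05 to 0.43 for the interaction. Single genes changed sign with 1 library left out: with exercise in Gr mutants rplp2 (-0.19 to 0.40), rpl22l1 (-0.35 to 0.35) and rps27.2 (-0.13 to 0.48), in wild-type fish rplp2 (-0.065 to 0.26), without exercise rpl27 (-0.56 to 0.038), rplp0 (-0.49 to 0.030, and 0.0085 without replicate 2 of the non-exercised wild-type fish) and rpl39 (-0.013 to 0.50), in exercised fish rplp2 (-0.31 to 0.10) and rpl36 (-0.21 to 0.059), and in the interaction rpl36 (-0.41 to 0.054) and rpl22l1 (-0.61 to 0.077). With exercise in Gr mutants, library totals alone turned rplp2 to -0.29, rpl22l1 to -0.38 and rps27.2 to -0.12, and no filter turned rplp2 to -0.034. The causes were not tested.

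The labels share replicate numbers between groups. Over all genes, deviations of same-numbered libraries from their group means correlated at -0.12 to 0.17, and those of differently numbered libraries at -0.23 to 0.28. With 3 libraries per group these values cannot settle whether the numbers pair the fish. The summed CPM of the 85 genes rose in the same order of replicates in both wild-type groups, but not in both groups of Gr mutants. With the number as a replicate block, none of the 85 genes passed, their medians were -0.16, -0.38, -0.04, 0.13 and 0.13 in the order above, rpl22l1 turned to -0.044 with exercise in Gr mutants, and calls over all genes were 0, 4, 0, 223 and 0. The calls of polr1a and of all 8 mitochondrial ribosomal proteins were lost under the block and that of rps6kb1a was kept. The planned search of promoters for a pyrimidine tract was not run, since no sequence was used here.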
